A study of Homo sapiens with 36 samples.

Results

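The interferon response genes described here are 7 of 2549 genes whose RNA was counted in 36 human lymphoma cell lines with a targeted sequencing panel. They were chosen by symbol from a list of 9: MX1, ISG15 and OAS1, which make antiviral proteins, and IRF7, IRF9, STAT2 and IRF1, which are transcription factors of the response. The other 2 of the 9, IFIT1 and IFIT3, have no row in the count table and are not analysed here. The choice was by name and used no threshold on a measured value, but it was made with earlier results of these data known. Each line is an established B-cell lymphoma or leukaemia culture and gave 1 library, so no value has a replicate of the same line. The labels name the lines and no treatment, and they put the lines in no groups. Types were therefore assigned from general knowledge of the named lines. The germinal centre type (GCB) of diffuse large B-cell lymphoma held 14 lines: DB, DOHH2, KARPAS422, OCILY1, OCILY18, OCILY19, OCILY7, OCILY8, SUDHL10, SUDHL16, SUDHL4, SUDHL6, TOLEDO and WSU_DLCL2. The activated B-cell type (ABC) held 5 lines, HBL1, RIVA, SUDHL2, TMD8 and U2932. Mantle cell lymphoma held 9 lines: GRANTA519, JEKO1, JVM2, MAVER1, MINO, REC1, SP49, SP53 and UPN1. Marginal zone and hairy cell neoplasms were taken as 1 group of 5 lines, of which KARPAS1718, SSK41 and VL51 are marginal zone lines and HAIR_M and HC_1 hairy cell lines. MEC1, a chronic lymphocytic leukaemia line, and FARAGE and RCK8, diffuse large B-cell lines whose subtype was not settled, entered no comparison of types.

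Interferons are secreted proteins that bind receptors on the cell surface and activate the JAK kinases. After type I interferon, STAT2 and IRF9 act in a complex that binds the interferon-stimulated response element (ISRE) in promoters of antiviral genes. Interferon gamma acts through another element, the gamma-activated site (GAS), and IRF1 is a classic gene switched on this way. Cells can keep these genes on without added interferon, and tumour lines are known to differ in that.

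Sequence before the start of the members is shown for ISG15 and IRF1, which hold the clearest examples of the ISRE and of the GAS. Of the 7 genes, 6 had an entry in the RefSeq promoter table (GRCh38.p14), and IRF7 had none. The 250 bases before each start were searched on both strands for the ISRE core, which is GAAA, any 2 bases and GAAA, and for the GAS, which is TTC, any 3 bases and GAA. The stretches printed lie outside annotated exons, read 5′ to 3′ on the gene's strand, with the matches in capitals. That of ISG15 is chr1:1013247-1013422 on the plus strand, inside the annotated gene and outside its exons. That of IRF1 is chr5:132490799-132491023 on the minus strand, just upstream of the annotated gene.
ISG15: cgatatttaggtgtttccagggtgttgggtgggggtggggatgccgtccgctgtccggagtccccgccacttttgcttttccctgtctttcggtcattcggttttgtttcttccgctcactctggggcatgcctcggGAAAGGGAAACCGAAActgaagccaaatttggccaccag
IRF1: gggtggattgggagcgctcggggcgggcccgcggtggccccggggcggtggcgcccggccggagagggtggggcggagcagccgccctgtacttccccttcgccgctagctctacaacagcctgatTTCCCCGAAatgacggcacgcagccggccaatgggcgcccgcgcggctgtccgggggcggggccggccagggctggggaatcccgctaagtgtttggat
The capitals in ISG15 are a pair of overlapping ISRE matches, GAAAGGGAAA starting 113 bases before the start and GAAACCGAAA starting 107 bases before it. In IRF1 the match is the GAS TTCCCCGAA, 124 bases before the start. A GAS match was also found in OAS1 (TTCAGAGAA, 168 bases before the start) and in IRF9 (TTCTGGGAA, 63 bases before the start). The most downstream of the 3 start sites of MX1 had an ISRE match on the minus strand (TTTCTCTTTC, 196 bases before the start) that overlapped a GAS match (TTCCGTGAA, 189 bases before it). No match was found in the window of STAT2 or at the other MX1 starts. The ISRE pattern required exactly 2 bases between the repeats of GAAA, so repeats spaced more closely were not counted. Such a stretch, GAAACGAAA, lies in the OAS1 window and, on the minus strand, at another MX1 start. The lack of a match here is thus not the lack of an ISRE. Of 35116 windows of the same length, 1061 (3.02%) held the ISRE core and 2306 (6.57%) the GAS, so these are matches of letters and not measured binding.

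Library totals ran from 6422917 to 13451527 counts, with a median of 10476681. The MEC1 library stood apart, as the highest of 10 targets that name no gene had 424 counts there against at most 64 in any other library. Its lowest count of any gene was 174, against at most 10 elsewhere. These targets were taken as control probes, although the labels do not say what they are. All levels are in CPM, counts scaled to a common total by library size and by a TMM factor, which corrects for libraries in which a few genes take a large share of the counts. Levels are compared between lines within 1 gene and not between genes, since the target lengths and capture of the panel are not given. Each interval is an exact Poisson 95% interval and covers counting error only. The summed level of 6 B cell markers was lowest in MEC1 at 4554 CPM and highest in KARPAS1718 at 81185 CPM. The summed level of 4 T and NK cell markers was between 8.95 CPM (SUDHL4) and 517 CPM (REC1), and that of 6 myeloid markers between 28.3 CPM (SUDHL6) and 785 CPM (MEC1). That of 6 stromal and endothelial markers was between 25.0 CPM (OCILY8) and 1152 CPM (HBL1). Spearman's rho of these 4 sums with MX1 over the 36 lines was 0.23, 0.06, 0.08 and 0.37. The part of other cells in the levels was not tested, nor was that of the raised lowest counts in the MEC1 sums.

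MX1, a dynamin-like GTPase that blocks viruses such as influenza (chromosome 21, 41420304 to 41459214, plus strand, GRCh38), spanned the widest range of the members. Its level was 1.81 CPM in SUDHL4 (16 counts, interval 1.04 to 2.94), had a median of 138 CPM, and reached 5708 CPM in MAVER1 (38976 counts, interval 5652 to 5765), a 3149-fold span. SUDHL16 (2346 CPM), JVM2 (1995 CPM), HAIR_M (1747 CPM), VL51 (1409 CPM), DOHH2 (1328 CPM) and HC_1 (1265 CPM) followed MAVER1. At the other end, SSK41 had 5.96 CPM, SUDHL6 7.09 CPM, SUDHL2 7.47 CPM and DB 8.90 CPM. The SD of log2 CPM across lines was 2.85 for MX1, and only 23 of 2406 genes kept for tests had a larger one. The median SD over those genes was 1.20.

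ISG15, a ubiquitin-like protein that is joined to other proteins after interferon (chromosome 1, 1001138 to 1014540, plus strand), had 17.3 CPM in DB, a median of 333 CPM and 8672 CPM in SUDHL16, a 501-fold span with an SD of 1.89 log2 units. MAVER1 had 5521 CPM, JVM2 2891 CPM, VL51 2778 CPM and HC_1 2224 CPM. These are 5 of the 7 lines highest in MX1. In HAIR_M, the fourth highest in MX1, ISG15 was at 618 CPM.

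OAS1, which senses double-stranded RNA and makes the messenger that activates RNase L (chromosome 12, 112906777 to 112933222, plus strand), was lowest in RCK8 at 0.684 CPM (8 counts, interval 0.295 to 1.35). Its median was 49.3 CPM, and its highest level 471 CPM in SUDHL16. MAVER1 with 448 CPM and JVM2 with 439 CPM lay close behind, and the intervals of SUDHL16 (456 to 487) and MAVER1 (433 to 465) overlapped. TOLEDO had 2.37 CPM. The SD of OAS1 was 1.99 log2 units, and 212 genes had a larger one.

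Among the factors, IRF7, the inducible regulator that drives interferon alpha genes (chromosome 11, 612553 to 615999, minus strand), ran from 13.9 CPM in RCK8 through a median of 52.4 CPM to 817 CPM in MAVER1. DOHH2 had 447 CPM and VL51 371 CPM. MEC1 was high in IRF7 as well, at 299 CPM, while its IRF9 (34.4 CPM) and STAT2 (117 CPM) were low. IRF9, the DNA-binding part of the complex with STAT2 (chromosome 14, 24161053 to 24166565, plus strand), ran from 9.38 CPM in UPN1 through a median of 77.5 CPM to 525 CPM in SUDHL16, with JVM2 at 394 CPM and MAVER1 at 385 CPM. RCK8 with 10.4 CPM and TOLEDO with 13.8 CPM, the lines lowest in OAS1, were next to UPN1 at the low end of IRF9.

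STAT2, which brings the activating domain to the same complex (chromosome 12, 56341597 to 56360155, minus strand), varied least, from 89.7 CPM in SUDHL10 through a median of 416 CPM to 2007 CPM in SUDHL16 (SD 1.00 log2 units). MAVER1 had 1715 CPM, and SUDHL4, the line lowest in MX1, had 1521 CPM. STAT2 also moved with the scaling of the libraries, with a Pearson r of -0.78 between its log2 CPM and the log2 TMM factor over 36 lines. The same r was between -0.38 and -0.03 for the other 6 members.

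IRF1, a factor induced by interferon gamma (chromosome 5, 132481609 to 132490798, minus strand), was highest in OCILY19, a line in which the antiviral genes were low. It ran from 8.65 CPM in DB (72 counts) through a median of 55.5 CPM to 490 CPM in OCILY19, with MAVER1 at 250 CPM and DOHH2 at 236 CPM. In OCILY19 itself MX1 was at 21.9 CPM, OAS1 at 16.8 CPM and ISG15 at 71.5 CPM, all below their medians. The SDs of IRF7, IRF9 and IRF1 were 1.42, 1.37 and 1.14 log2 units, near the median SD of all genes.

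Many neighbouring lines in these orders cannot be told apart by counting error alone. The intervals of neighbours overlapped in 17 of 35 pairs for MX1, 14 for ISG15, 26 for OAS1, 28 for IRF7, 26 for IRF9, 18 for STAT2 and 30 for IRF1. The spread between cultures of 1 line is not known, as each line was sequenced once.

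**Figure D1:**
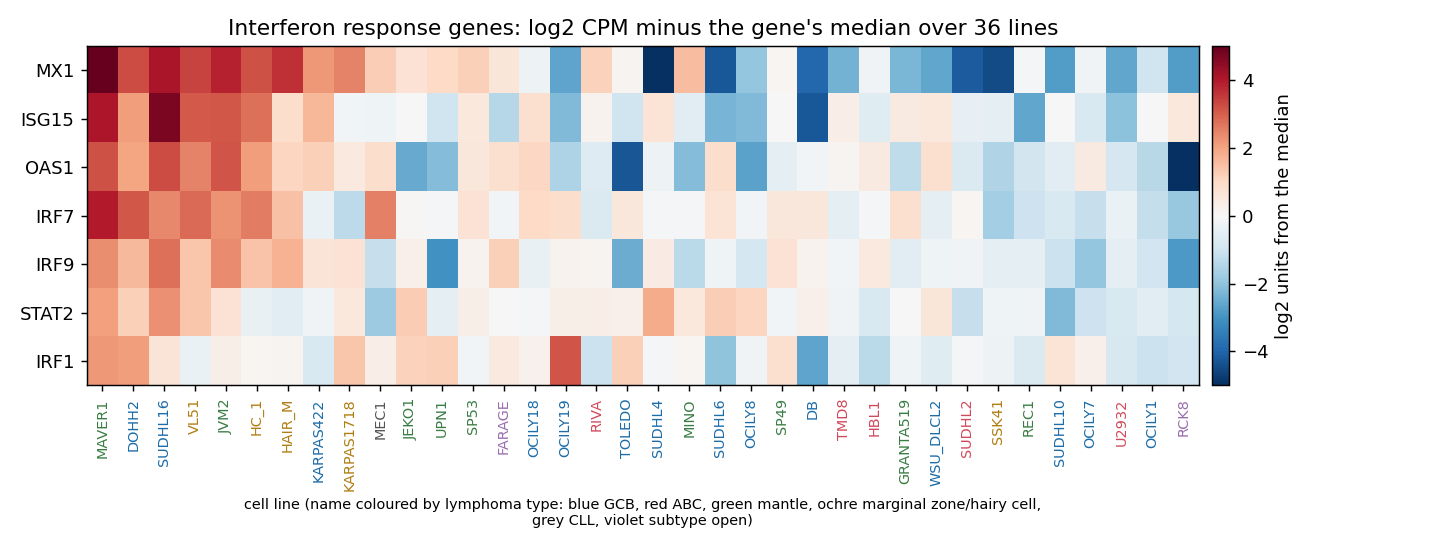
Level of each of the 7 genes (rows) in each of the 36 lines (columns), as log2 CPM minus that gene's median over the lines; red is above and blue below the median. Lines are ordered by how many of the 7 genes lie at least 1 log2 unit above the median, and MAVER1 and DOHH2 at the left have all 7.

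Lines with the genes of the response high together, with no treatment in the labels, were named by a plain rule: a gene counted as high in a line where it lay at least 1 log2 unit above its median over the 36 lines. In 4 lines at least 75% of the 7 genes were high. MAVER1, a mantle cell line, and DOHH2, a GCB line, had all 7 high, and the median of the 7 lay 3.19 and 2.09 log2 units above the gene medians. SUDHL16, a GCB line, had 6 high, by a median of 2.76 log2 units; only IRF1, at 87.8 CPM, was not. VL51, a marginal zone line, also had 6 high, by a median of 2.48 log2 units, and its IRF1 was at 43.3 CPM, below the median.

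A further 3 lines were high in part. JVM2 (mantle cell) and HC_1 (hairy cell) each had 5 high, all but STAT2 and IRF1. HAIR_M (hairy cell) had 4 high, MX1, OAS1, IRF7 and IRF9. Just outside lay KARPAS422 with 3 high genes, MX1 at 622 CPM, ISG15 at 1053 CPM and OAS1 at 114 CPM. Of the other 28 lines, 4 had 2 high, 10 had 1 and 14 had none. OCILY1 and RCK8 lay at the other end, each with 4 genes at least 1 log2 unit below the median. The number of such low lines was 4 with DESeq2 size factors and with the authors' deposited log2 values, 3 with library size alone, 1 at a step of 1.5 log2 units and 0 at 2.

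With a step of 1.5 log2 units in place of 1, the lines with at least 75% of the genes high were MAVER1, DOHH2 and SUDHL16, and with 2 log2 units they were MAVER1 and SUDHL16. The authors' deposited log2 values gave the same 4 lines as the scaling used here. With library size alone VL51 was high only in part, and MAVER1, DOHH2 and SUDHL16 kept their place. The named lines were read off these levels, so they are not tested against the rest as a group. Counted by type, lines high throughout or in part were 3 of 5 marginal zone and hairy cell lines, 2 of 9 mantle cell lines, 2 of 14 GCB lines and 0 of 5 ABC lines. HAIR_M dropped out at a step of 1.5 or 2 log2 units, which left 2 of 5, and MEC1 joined the lines high in part with library size alone.

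GRANTA519, JVM2, FARAGE and MEC1 are known to carry Epstein-Barr virus; the status of the other lines was not settled here. Their MX1 was 28.3, 1995, 209 and 321 CPM and their ISG15 450, 2891, 122 and 290 CPM. JVM2 was the only one of them with most of the 7 genes high.

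**Figure D2:**
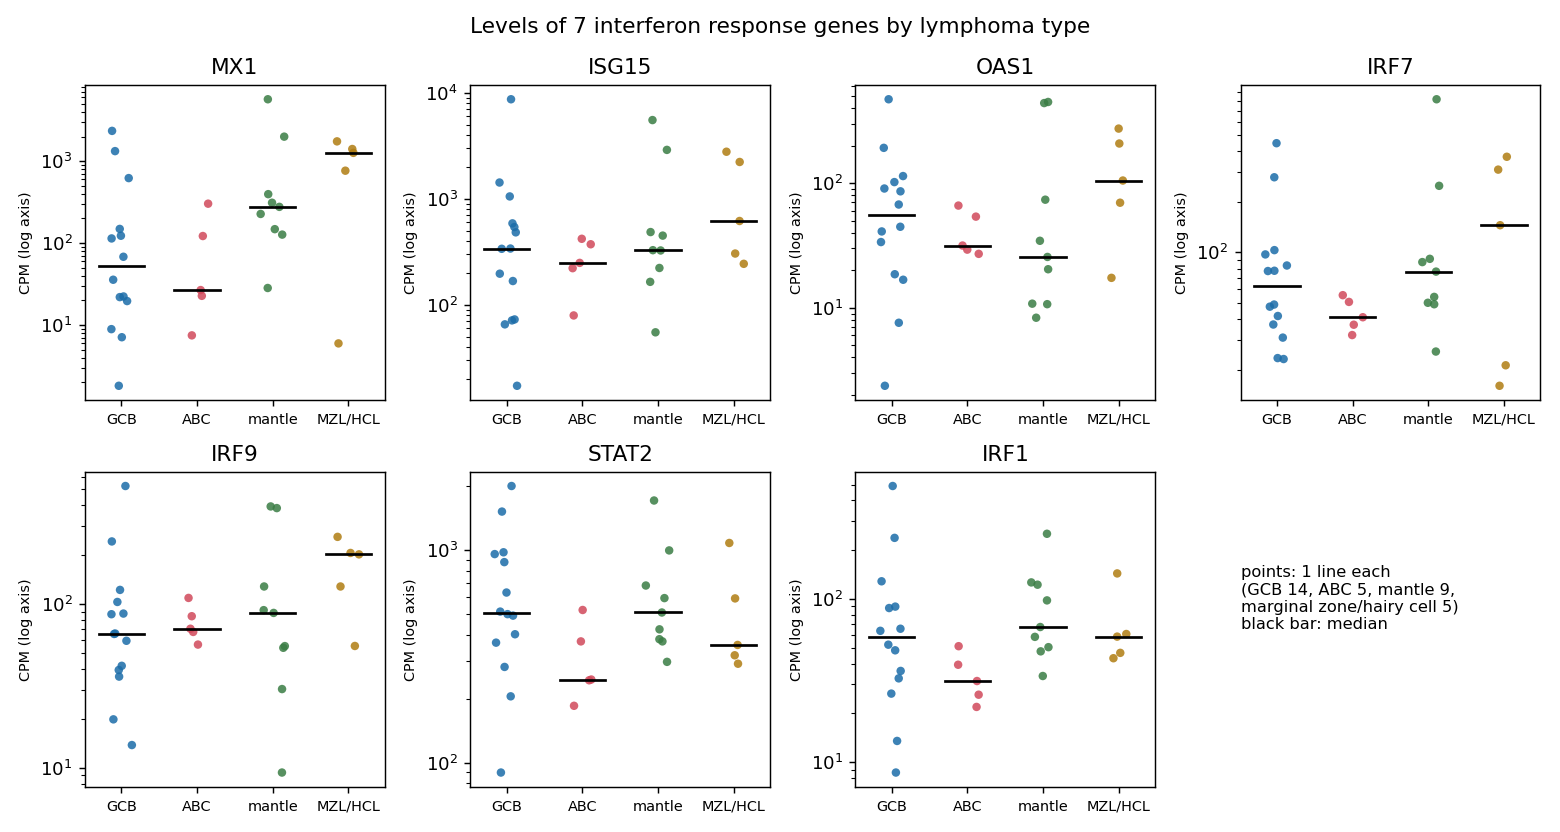
Levels of the 7 genes in CPM (log axes) in the lines of 4 lymphoma types, 1 point per line, with a black bar at the median. MX1 medians run from 26.7 CPM in the ABC lines to 1265 CPM in the marginal zone and hairy cell lines, and the types overlap in every gene.

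The question of whether the lymphoma types differ in these genes was taken to 6 pairwise comparisons. MX1 had a median of 51.9 CPM in the GCB lines (1.81 to 2346 CPM), and of 277 CPM in the mantle cell lines (28.3 in GRANTA519 to 5708 in MAVER1). The 5 ABC lines had 303 (RIVA), 122 (HBL1), 26.7 (TMD8), 22.7 (U2932) and 7.47 CPM (SUDHL2). The 5 marginal zone and hairy cell lines had 1747 (HAIR_M), 1409 (VL51), 1265 (HC_1), 766 (KARPAS1718) and 5.96 CPM (SSK41). Thus 4 of the last 5 lay above every ABC line and SSK41 lay below them all, and the types overlapped.

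ISG15 medians were 339 CPM in the GCB, 249 in the ABC, 328 in the mantle cell and 618 in the marginal zone and hairy cell lines. Its 5 ABC lines had 420 (TMD8), 373 (RIVA), 249 (SUDHL2), 222 (HBL1) and 79.6 CPM (U2932), and the 5 marginal zone and hairy cell lines 2778 (VL51), 2224 (HC_1), 618 (HAIR_M), 305 (KARPAS1718) and 244 CPM (SSK41). Both ends of the GCB lines, DB with 17.3 CPM and SUDHL16 with 8672 CPM, lay outside the ranges of the other types. OAS1 medians were 56.1, 31.6, 25.6 and 105 CPM in the same order of types. The ABC lines kept to a narrow band in OAS1 (27.1 to 66.1 CPM), IRF7 (32.1 to 55.5 CPM) and IRF9 (56.6 to 109 CPM). Their SDs there were 0.58, 0.32 and 0.36 log2 units, against 1.93, 1.24 and 1.35 in the GCB lines.

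The factors overlapped between types too. IRF9 medians were 65.9 CPM in the GCB, 70.7 in the ABC, 88.3 in the mantle cell and 201 in the marginal zone and hairy cell lines. STAT2 medians were 507, 246, 509 and 358 CPM, IRF7 medians 63.1, 41.0, 76.7 and 145 CPM, and IRF1 medians 58.1, 31.4, 67.2 and 58.7 CPM. In IRF1 every ABC line lay between 21.8 and 51.3 CPM, while the other types reached 143 CPM (KARPAS1718) or more.

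None of the 7 genes passed the test in any comparison of types (edgeR quasi-likelihood test, Benjamini-Hochberg adjusted p under 0.05 over 2406 genes). The share of all genes that passed was 1.75% for ABC against GCB, 4.36% for mantle cell against GCB and 3.28% for marginal zone and hairy cell against GCB. It was 0.374% for mantle cell against ABC, 0% for marginal zone and hairy cell against ABC, 0.582% for marginal zone and hairy cell against mantle cell, and 6.28% for any difference between the 4 types. A count of 0 among 7 genes lies close to these shares and sets the 7 apart from no other genes. In simulated data the test recovered only 33% of differences of 2 log2 units for ABC against GCB. For mantle cell against GCB it recovered 59%. At an unadjusted p under 0.05 the count was 2 for ABC against GCB (IRF1 and STAT2), 3 for mantle cell against ABC (IRF1, IRF7 and MX1), 2 for marginal zone and hairy cell against ABC (IRF7 and MX1), and 0 in the other comparisons. The DESeq2 and limma-voom tests also called 0 of the 7 in each.

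The largest fitted differences were those of MX1 against the ABC lines. Its fitted level was 3.41 ± 1.53 log2 units (SE) higher in mantle cell lines (adjusted p = 0.346) and 3.43 ± 1.60 higher in marginal zone and hairy cell lines (adjusted p = 0.624). ABC minus GCB gave -1.85 ± 1.34 for MX1 (adjusted p = 0.55), -1.90 ± 1.11 for ISG15 (adjusted p = 0.431), -1.54 ± 0.67 for IRF1 (adjusted p = 0.269) and -1.16 ± 0.51 for STAT2 (adjusted p = 0.279). All 7 fitted values were below 0 there, with a median of -1.23 against -0.12 over all genes, but that of IRF9 (-0.47 ± 0.68) turned to 0.08 in the authors' deposited log2 values, to 0.17 with limma-voom and to 0.08 with the log2 TMM factor as a covariate. Single lines and the scale moved these values by over 1.5 times. MX1 in mantle cell minus ABC lines was 2.19 without MAVER1. ABC minus GCB without SUDHL16 was -1.01 for MX1 and -0.62 for ISG15, and without RIVA it was -2.96 for MX1. For IRF1 it was -1.01 without OCILY19. The authors' deposited log2 values gave -0.54 for MX1, -0.42 for ISG15 and -0.89 for IRF1, limma-voom -0.60, -0.37 and -0.87, and the TMM factor as a covariate -0.87 for ISG15 and -0.42 for STAT2. With library size alone STAT2 was at -0.73. The comparisons share their lines, so they are not separate evidence. The fit compares mean counts, which a few high lines dominate: for ISG15 the mean log2 CPM was 7.87 in the ABC and 8.23 in the GCB lines, a smaller gap than the fitted one.

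Lymphoma type accounted for 21.4% of the variance of MX1 over the 33 lines in the 4 types and for 5.56% (OAS1) to 12.0% (IRF1) of that of the other members. The median over all genes kept was 10.9%. Most of the spread of the 7 genes thus lay between lines of 1 type.

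**Figure D3:**
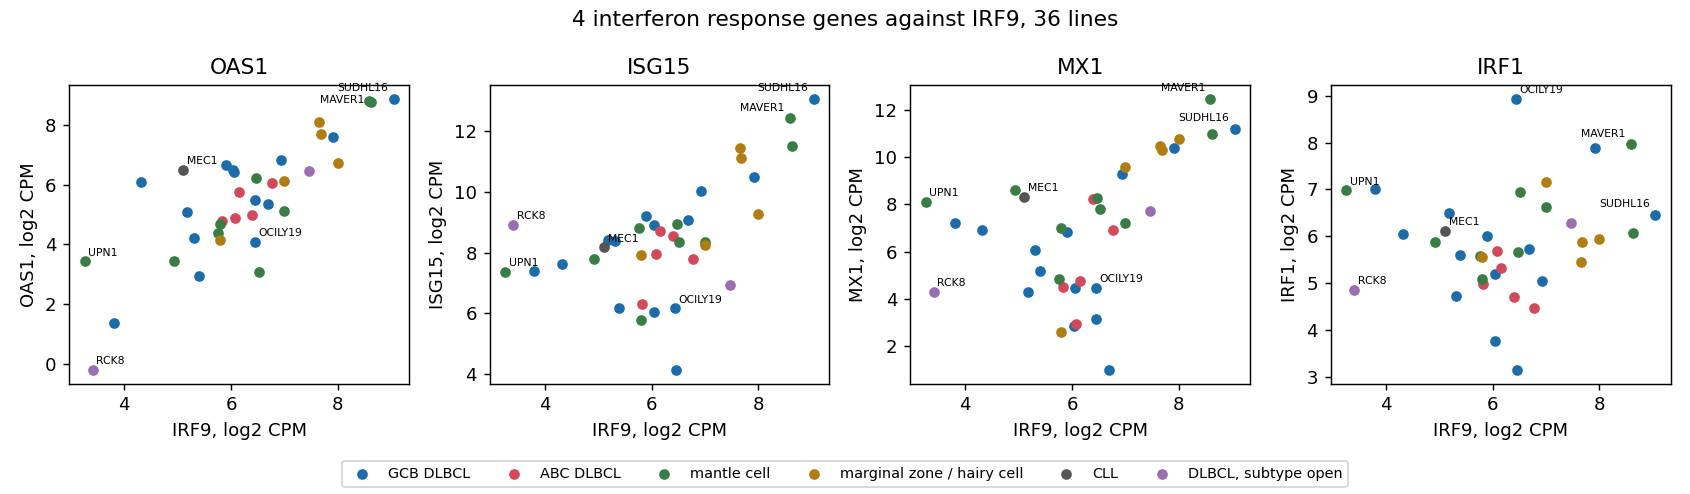
log2 CPM of OAS1, ISG15, MX1 and IRF1 against log2 CPM of IRF9, 1 point per line (36 lines), coloured by lymphoma type. OAS1, ISG15 and MX1 are high where IRF9 is highest (SUDHL16, MAVER1), whereas IRF1 is highest in OCILY19, a line in the middle of the IRF9 range.

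Whether the members move together over lines was asked by a slope of each gene on the log2 CPM of IRF9. OAS1 rose by 0.95 ± 0.14 log2 units (SE) per log2 unit of IRF9 (edgeR adjusted p = 2.96e-05), MX1 by 0.87 ± 0.19 (adjusted p = 0.00339), ISG15 by 0.81 ± 0.13 (adjusted p = 9.34e-05) and IRF7 by 0.62 ± 0.13 (adjusted p = 0.00207). STAT2 rose by 0.39 ± 0.10 (adjusted p = 0.011). IRF1 had a slope of 0.16 ± 0.13 that did not pass (adjusted p = 0.448). So 5 of the 6 other members passed, all upward, against 7.03% of the 2405 genes tested (5.78% upward and 1.25% downward), and the median slope was 0.72 for the 6 against -0.01 for all genes.

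The STAT2 slope is the one that depends on the scaling and on 1 line. It was 0.21 with the log2 TMM factor as a covariate (adjusted p = 0.081), 0.25 with library size alone (adjusted p = 0.0816), and 0.34 without SUDHL16 (adjusted p = 0.0643). Without SUDHL16, 99 genes passed in place of 169, and 4 of the 6 members. The other 4 upward slopes passed under every alternative and without each line in turn.

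No member passed in the same test on IRF1, where 1.08% of 2405 genes did (0.998% upward and 0.0832% downward). The slopes were 1.26 ± 0.38 for MX1 (adjusted p = 0.108), 0.94 ± 0.33 for ISG15 (adjusted p = 0.186), 0.58 ± 0.18 for IRF7 (adjusted p = 0.119), 0.41 ± 0.26 for OAS1 (adjusted p = 0.705), 0.36 ± 0.19 for IRF9 (adjusted p = 0.516) and 0.20 ± 0.13 for STAT2 (adjusted p = 0.762). At an unadjusted p under 0.05 there were 3, MX1, ISG15 and IRF7. DESeq2 called MX1 (adjusted p = 0.00137) and ISG15 (adjusted p = 0.00537), limma-voom called 0, and edgeR with library size alone called IRF7 (adjusted p = 0.0493). The count over all genes fell from 26 to 7 without OCILY19 and to 16 without MAVER1. The difference between a gene's slope on IRF9 and its slope on IRF1 was not tested.

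Spearman's rho between members over the 36 lines, given as a description, was highest for OAS1 with IRF9 (0.73, Pearson r 0.80). The 3 antiviral genes had rho of 0.53 (MX1 with ISG15), 0.55 (MX1 with OAS1) and 0.61 (ISG15 with OAS1) with each other. IRF1 had 0.42 with MX1, 0.38 with IRF7, 0.20 with IRF9, 0.20 with STAT2, 0.18 with ISG15 and 0.10 with OAS1. The values of 1 line come from 1 library, so they share its depth and scaling. With the log2 TMM factor regressed out, OAS1 with IRF9 was at 0.77 and OAS1 with IRF1 at 0.15.

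**Figure D4:**
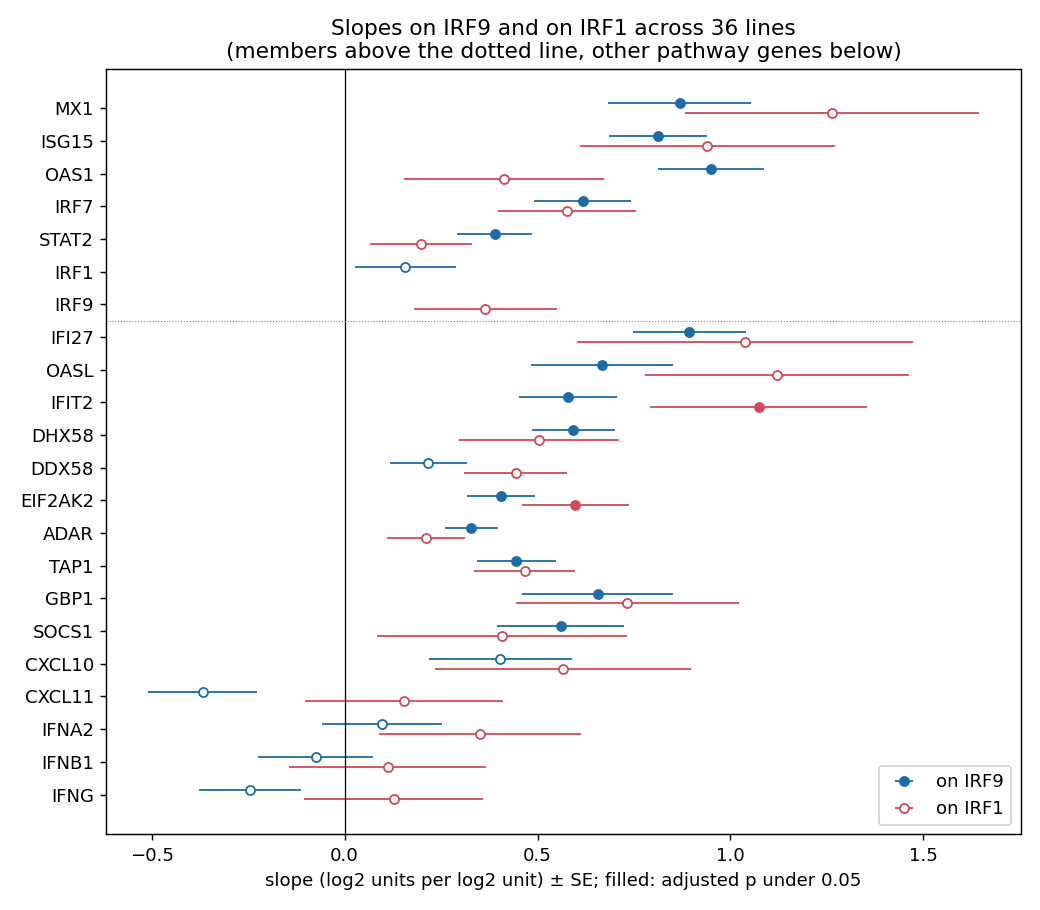
Slope of each gene on log2 CPM of IRF9 (blue) and of IRF1 (red) across 36 lines, with bars of 1 SE and filled points where the edgeR adjusted p is under 0.05. Members stand above the dotted line and other genes of the pathway below it; 5 of 6 members pass on IRF9 and 0 of 6 on IRF1.

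Of the rest of the pathway, none of 8 receptor kinases and STATs passed on IRF9, a count close to the 7.03% of all genes that did. JAK1, JAK2 and TYK2, the kinases bound to the receptors, had slopes of 0.24 ± 0.11, 0.34 ± 0.12 and 0.11 ± 0.09 (adjusted p = 0.148, 0.0645 and 0.464).

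Among 12 other type I interferon targets, 5 rose with IRF9 and none fell, against 5.78% of all genes upward and 1.25% downward. IFI27, a small mitochondrial protein, rose by 0.89 ± 0.15 (adjusted p = 1.8e-04), OASL, a relative of OAS1, by 0.67 ± 0.18 (adjusted p = 0.0222), IFIT2, which binds viral RNA, by 0.58 ± 0.13 (adjusted p = 0.00448), EIF2AK2, the RNA-activated kinase PKR, by 0.41 ± 0.09 (adjusted p = 0.00409) and ADAR, which edits double-stranded RNA, by 0.33 ± 0.07 (adjusted p = 0.00246). SUDHL16, the line highest in IRF9, also held the highest level of IFI27 (851 CPM, median 10.4), IFIT2 (1392 CPM, median 43.4) and OASL (490 CPM, median 13.6). The next highest levels were 327 CPM (HC_1), 603 CPM (MAVER1) and 297 CPM (MAVER1). Spearman's rho with IRF9 over the 36 lines was 0.33 for IFI27, 0.36 for OASL, 0.30 for IFIT2, 0.40 for EIF2AK2 and 0.58 for ADAR. The part of SUDHL16 in these 5 slopes was not tested. IFI27 differed among the lines named above, with 145 CPM in DOHH2 and 43.5 CPM in MAVER1.

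Of 13 genes of nucleic acid sensing, 4 rose with IRF9: DHX58 (LGP2, a RIG-I-like receptor) by 0.59 ± 0.11, TBK1 by 0.27 ± 0.08, MYD88 by 0.21 ± 0.07, and EIF2AK2, which this list also holds. TBK1 is the kinase that activates IRF3 and IRF7. SUDHL16 was highest in MYD88 (668 CPM, next 278 in SP49) and in TBK1 (1007 CPM, next 572 in OCILY8). Spearman's rho with IRF9 over the 36 lines was 0.22 for MYD88, 0.44 for TBK1 and 0.57 for DHX58. The part of SUDHL16 in these slopes was not tested. As for STAT2, the levels of TBK1, ADAR and PIAS1 followed the log2 TMM factor, with Spearman's rho of -0.82, -0.75 and -0.67, and the part of the scaling in their slopes was not tested. RIG-I itself, DDX58, had a slope of 0.22 ± 0.10 that did not pass (adjusted p = 0.164). Of 15 interferon gamma targets 3 rose: GBP1 (0.66 ± 0.20), SOCS1 (0.56 ± 0.16) and TAP1 (0.44 ± 0.10). Among 10 feedback inhibitors 2 rose, SOCS1 and PIAS1 (0.26 ± 0.07). Of 3 receptor chains IFNGR1 rose (0.31 ± 0.10), and IFNAR1 (0.14 ± 0.13) did not pass. None of 6 other interferon regulatory factors passed, and no gene of these lists fell. Of 6 B cell markers CD79A rose (0.40 ± 0.12), and none of the T and NK cell, myeloid or stromal markers passed. Of all genes 5.78% rose and 1.25% fell, so the lack of falling genes is close to that share. In lists this short, 1 gene that rose or none says little.

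On IRF1, EIF2AK2 rose by 0.60 ± 0.14 (adjusted p = 0.0154), IFIT2 by 1.07 ± 0.28 (adjusted p = 0.0442) and TLR7, a sensor of single-stranded RNA, by 0.67 ± 0.18 (adjusted p = 0.0442). These are 2 of 12 type I targets and 2 of 13 sensing genes, and 0 of 15 interferon gamma targets passed, against 1.08% of all genes, so that the count for the gamma targets is near that share. In OCILY19, the line highest in IRF1, the targets lay on both sides of their medians. GBP1 (315 CPM, median 51.1), TAP1 (447 CPM, median 129), DDX58 (274 CPM, median 97.0), EIF2AK2 (234 CPM, median 147) and DHX58 (163 CPM, median 63.2) were above. SOCS1 (100 CPM, median 379), IFIT2 (11.6 CPM, median 43.4), OASL (6.68 CPM, median 13.6), CXCL10 (29.1 CPM, median 34.9) and IFI27 (7.97 CPM, median 10.4) were below. OCILY19 was also the highest line in TAP2 (878 CPM, median 220) and HLA-E (6445 CPM, median 1283), both interferon gamma targets. In GBP2, another gamma target, it was second (144 CPM, median 37.8). Not every target on the lists is given here for this line. Between types, no other type I target passed in any of the 6 pairwise comparisons. The pathway genes that did were STAT3, PTPN1 and SOCS3 in ABC against GCB, SOCS3 in mantle cell against GCB, and SOCS3, STAT5A and CD274 in marginal zone and hairy cell against GCB lines, all higher than in the GCB lines. Of all genes, 1.41%, 2.37% and 3.16% passed upward in these 3 comparisons. SOCS3, an inhibitor of JAK kinases, rose by 4.53 ± 0.85 log2 units in the ABC lines (adjusted p = 0.00213).

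Among the genes most like the 3 antiviral members over the 36 lines, by mean Spearman's rho with MX1, ISG15 and OAS1, were IFIT2 (0.61), OASL (0.60), DHX58 (0.58), DUSP5 (0.57), LGALS1 (0.57), EIF2AK2 (0.55) and MAPK6 (0.53). IFIT2, OASL, DHX58 and EIF2AK2 were on the pathway lists. DUSP5, a phosphatase of ERK kinases, LGALS1, a galactose-binding lectin, and MAPK6, an atypical MAP kinase, were not. DUSP5 and LGALS1 were both highest in VL51, at 2734 and 2458 CPM. Member by member, the most similar gene was EIF2AK2 for MX1 (0.65), LGALS1 for ISG15 (0.70) and OASL for OAS1 (0.69). Among the factors it was SLC2A3 for IRF7 (0.70), CDK7 for IRF9 (0.71), TBK1 for STAT2 (0.81) and APOL3 for IRF1 (0.63). SLC2A3 and CDK7 were not on the pathway lists, so IRF9 and IRF7 also went with genes outside them. STAT2 and TBK1 both followed the log2 TMM factor (rho -0.75 and -0.82), and its part in their likeness was not tested.

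**Figure D5:**
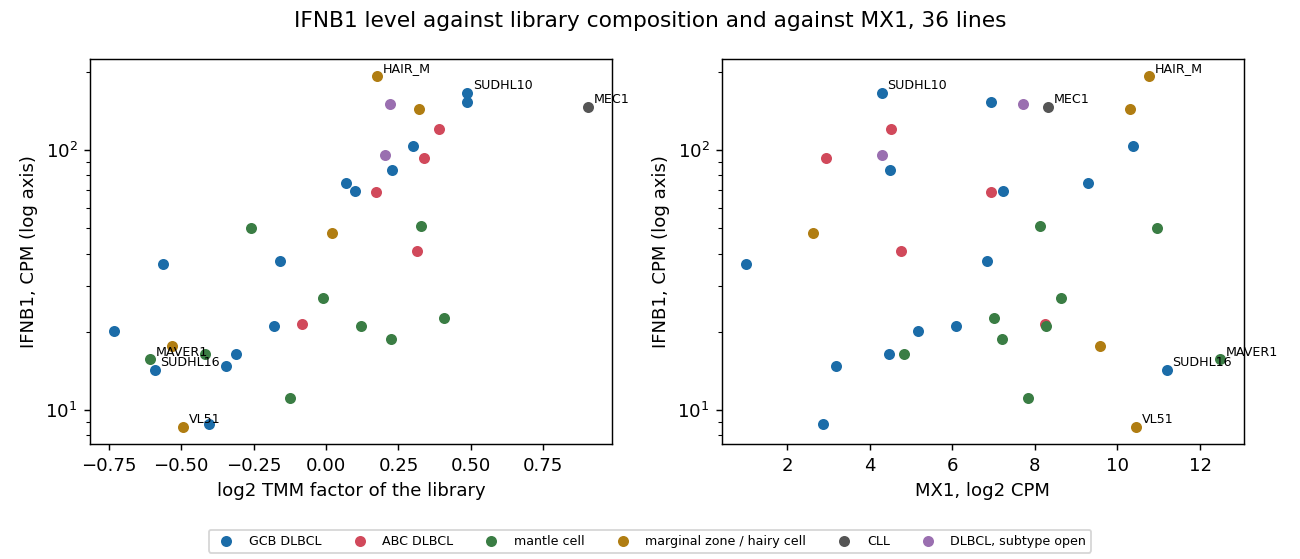
Level of IFNB1 in CPM (log axis) in the 36 lines against the log2 TMM factor of the library (left) and against log2 CPM of MX1 (right), 1 point per line, coloured by lymphoma type. IFNB1 follows the TMM factor (Spearman's rho 0.77) and not MX1 (Spearman's rho -0.02).

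The table held 6 of 21 interferon genes looked for, and none exceeded 193 CPM in any line. IFNB1, the first interferon made after viral sensing, had a median of 39.2 CPM and its highest level in HAIR_M (193 CPM). IFNB1 was at 15.7 CPM in MAVER1, 14.3 in SUDHL16, 8.64 in VL51 and 104 CPM in DOHH2, so the lines with the antiviral genes high lay at both ends of its range. The medians of IFNA2, IFNA5, IFNG, IFNL3 and IFNW1 were 19.1, 25.6, 42.0, 0.865 and 16.3 CPM. Spearman's rho of the 6 with the log2 TMM factor was 0.54 to 0.79, and with MX1 -0.25 to 0.15. IFNA2 was highest in HC_1 (149 CPM) and MAVER1 (133 CPM), both among the lines with high antiviral genes, against 4.71 CPM in SUDHL16. None of the 5 ligands that could be tested passed on IRF9 or on IRF1. The part of the libraries' composition in the ligand levels was not tested.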

How the data were processed

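Lysates of 36 human lymphoma cell lines were measured by targeted RNA-Seq, with 1 library per line, run as singletons on an Illumina NextSeq per the labels. The authors deposited counts per target with no scaling, and a second table of log2 values. The deposited log2 values could be rebuilt from the counts, after dividing by a factor for each library and adding 1, to within 0.00741. The submitters' processing notes name build hg38. Aligner, counting tool and strand setting: not given in the sources used here. Of 2559 targets, 10 that name no gene, taken as control probes, were left out (median 0.000209% of counts, at most 0.0265%), leaving 2549 genes.

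Counts were scaled by TMM in edgeR 4.0.16 and given as CPM, or as log2 CPM (prior count 2). The 2406 genes that reached 10 CPM in 4 or more lines were tested by the edgeR quasi-likelihood test. Types were compared over the 33 lines of the 4 types, and slopes on IRF9 and IRF1 were fitted over 36 lines, with Benjamini-Hochberg adjustment over all genes. SEs were derived from each estimate and its F statistic. Lines count as replicates of a type and were sequenced once each, so p-values measure the spread between these libraries. No batch is named in the labels. The tests were first tried on simulated data, with 100 genes changed by 1 log2 unit and 100 by 2. In ABC against GCB 3% and 33% of them were recovered, and in mantle cell against GCB 5% and 59%. For the slope on IRF9 it was 87% and 100%. Most true differences of 1 log2 unit would thus be missed in these 2 comparisons of types.

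Named genes are the members, the pathway genes past a threshold, genes among the 10 most like the antiviral members and the gene most like a member. Results for some genes are not reported here, and these genes are left out of the pathway lists. Positions come from GENCODE release 29 and promoter sequences from RefSeq (GRCh38.p14). Alternatives were other scalings, filters, covariates, DESeq2 1.42.0, limma 3.58.1 with voom or with the deposited log2 values, and leaving out lines. The members were taken by symbol, and they, the lists, line types and tests were chosen with earlier results of these data known. Reads of overlapping genes or close paralogs could not be told apart here.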

Additional observations from a re-analysis of the deposited data

Results flagged for a closer look

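In 21 groups of 5 or 9 lines (7 genes in the ABC, mantle cell, and marginal zone and hairy cell lines), 2 held a line far from the others, where chance gives about 1 in 20. MX1 in the marginal zone and hairy cell lines was lowest in SSK41, at 5.96 CPM, against 766 to 1747 CPM in the other 4. IRF1 in the same lines was highest in KARPAS1718, at 143 CPM, against 43.3 to 60.9 CPM in the other 4.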

How the results depend on the processing

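No member passed in any comparison of types under any alternative or without any 1 line. No paired analysis was possible because each line gave 1 library and the labels give no replicate numbers. Counts of all genes past the threshold moved more. ABC against GCB (42) gave 111 with the DESeq2 test, 5 with the authors' deposited log2 values, 26 with FARAGE and RCK8 counted as GCB, and 24 to 53 without 1 line. Mantle cell against GCB (105) gave 233 with DESeq2, 57 with limma-voom, 67 with the deposited values, 62 with FARAGE and RCK8 as GCB, 182 with the log2 TMM factor as a covariate, and 67 to 131 without 1 line. Marginal zone and hairy cell against GCB (79) gave 14 with limma-voom, 7 with the deposited values, 37 with FARAGE and RCK8 as GCB, 34 without HAIR_M and HC_1, and 42 to 92 without 1 line. Mantle cell against ABC (9) gave 53 with DESeq2, 1 with limma-voom and with the deposited values, 4 with a filter of 50 CPM, and 3 to 18 without 1 line. Marginal zone and hairy cell against ABC (0) gave 33 with DESeq2 and 0 to 1 without 1 line. Marginal zone and hairy cell against mantle cell (14) gave 36 with DESeq2, 1 with limma-voom and with the deposited values, 5 with upper-quartile factors and with library size alone, 9 with a filter of 50 CPM and without HAIR_M and HC_1, and 7 to 27 without 1 line. Any difference between types (151) gave 297 with DESeq2, 61 with limma-voom and 51 with the deposited values.

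Members past the threshold on IRF9 were 4 to 5 without 1 line, and genes on IRF9 (169) were 343 with DESeq2, 268 with its size factors, 89 with lymphoma type as a factor, 91 with type and the log2 TMM factor together (chosen after seeing the data), and 99 to 241 without 1 line. STAT2 did not pass with upper-quartile factors (slope 0.25, adjusted p = 0.0784) or with type and TMM factor together (0.25, adjusted p = 0.0952). Genes on IRF1 (26) were 92 with DESeq2 (2 members), 126 with library size alone (1 member), 4 with limma-voom, with the deposited values and without OCILY19 and DB, 58 with type and TMM factor together, and 7 to 30 without 1 line.

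Fitted values that reversed were not past the threshold, and the cause was not tested. IRF9 in ABC minus GCB was 0.08 with the TMM factor as a covariate, 0.17 with limma-voom, 0.08 with the deposited values and -0.63 to 0.04 without 1 line. In mantle cell minus ABC, limma-voom gave -0.09 for OAS1 and -0.06 for IRF9. MX1 in marginal zone and hairy cell minus mantle cell, 0.02 in the fit used, was -0.49 without HAIR_M and HC_1 and -0.25 to 1.24 without 1 line. The lines with at least 75% of members high were 4 in the rule used, 3 with library size alone and 2 at 2 log2 units. Depth limits the low levels of OAS1 in RCK8 (8 counts) and MX1 in SUDHL4 (16 counts).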
